A study of Bos taurus with 88 samples.

Results

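Gene expression in whole blood of naturally suckled beef calves was examined for its net change between birth and 1 week of age, by comparing samples taken at 168 h of age with samples taken at birth (0 h). Members were chosen by breed and age in the sample labels, which gave 28 of the 88 samples in the series. They came from 14 calves, each sampled at both ages. Of these calves, 7 were the progeny of Charolais × Limousin cows (CL) and 7 the progeny of Limousin × Friesian cows (LF). The dams of both groups had been mated naturally to bulls of the Aberdeen Angus and Charolais breeds. All 14 remained with the dam and suckled freely, the 0 h sample was taken before suckling, and all dams had been vaccinated before calving. The comparison asks which genes had not returned to their birth level after 1 week, and each calf was compared with itself.

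The newborn calf receives almost no maternal antibody across the placenta and takes it from colostrum, so the first week spans the change from a fetal to an independently living immune system. Whole blood RNA is a mixture from neutrophils, lymphocytes, monocytes, platelets and young red cells. Birth is accompanied by a surge of cortisol, and the proportions of neutrophils and lymphocytes in calf blood are known to shift in the days after birth. In such bulk samples, fewer cells of a type and less RNA per cell cannot be told apart. The counts are listed by Ensembl identifier, and the files do not pair identifiers with gene symbols. The reference gene table paired 0 of them, so the genes are described by identifier, level and course, and whole blood was not checked against marker genes.

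Between 10023822 and 28136900 reads were counted on genes per sample (median 23808673), at which 3 counts correspond to a normalised level of 0.107 to 0.299 CPM (counts scaled to library size). The 0 h sample of LF calf 1 stood apart, with 27.66% of its reads unmapped and 32.79% mapped to several places, and it was also the shallowest library. The 168 h sample of CL calf 1 had the highest share of reads mapped to several places at that age (16.14%), and its 20 most abundant genes took 16.35% of its gene counts, against a median of 8.83% at 168 h. Of 5 library measures (depth, the unmapped and multimapping shares, the share of reads that fell outside genes, and the share of the 20 most abundant genes), none passed over all 14 calves (exact sign-flip permutation tests, two-sided, smallest p = 0.337, all adjusted to 0.739). The share of reads outside genes was nevertheless lower at 168 h in 12 of 14 calves, with medians of 24.3% and 22.4%. Without LF calf 1 it was lower in 12 of 13 calves, by a mean of -2.36 percentage points (SD 2.5), and passed (exact sign-flip permutation p = 0.00806, adjusted over the 5 measures p = 0.0403). Leaving out LF calf 1, in which this share rose from 13.37% to 26.1%, was chosen after seeing the data. A passed test of a shift with age rests on that choice. The part of this share in the differences between ages was not tested. On the first principal component, which held 36.7% of the variance, the 0 h samples lay between -65.4 and -17.5 and the 168 h samples between 9.53 and 49.6, so the ages did not overlap.

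After 1 week, 2271 of the 12851 genes tested (17.7%) were differentially expressed genes (DEG) relative to birth, 1016 upregulated (7.91% of genes tested) and 1255 downregulated (9.77%). A DEG had an adjusted p-value under 0.05 by edgeR's quasi-likelihood test with the calf as a block and Benjamini-Hochberg adjustment, and a fold change of at least 1.5. The median log2 fold change was 0.97 among upregulated and -0.95 among downregulated genes, against 0.02 over all genes tested. Changes of at least 2-fold were found for 492 upregulated and 577 downregulated genes, and changes of at least 8-fold for 68 and 30. The most extreme changes were falls, since 12 downregulated genes against 5 upregulated genes differed by at least 16-fold. A further 4034 genes had an adjusted p-value under 0.05 in the same edgeR test but differed by less than 1.5-fold.

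**Figure D1:**
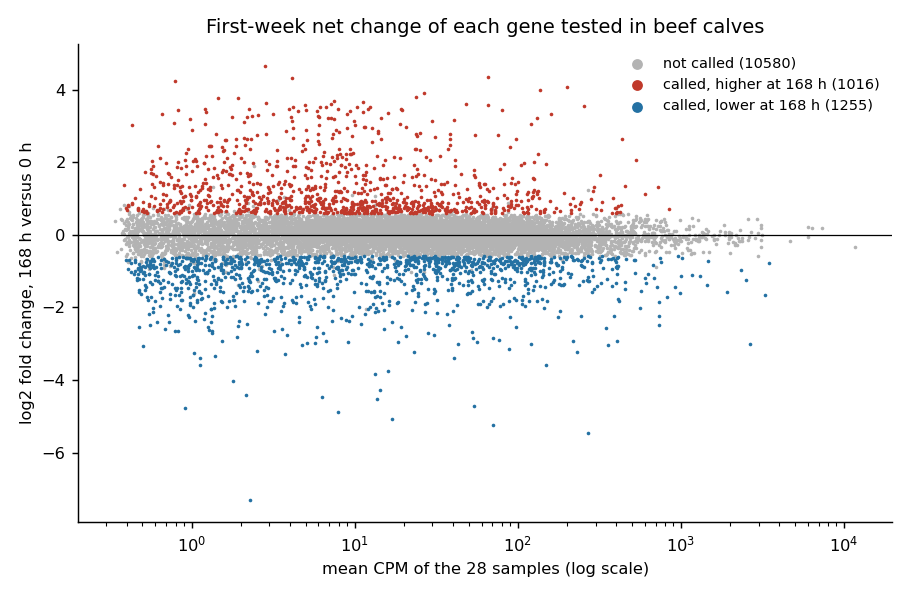
Each point is 1 of the 12851 genes tested, with its mean CPM over the 28 beef calf samples on the x axis (log scale) and its log2 fold change at 168 h versus 0 h on the y axis; red marks the 1016 upregulated DEG, blue the 1255 downregulated DEG and grey the other genes. The isolated point at the bottom is the fall of -7.32 on the log2 scale.

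The largest rise among genes averaging at least 1 CPM and moving the same way in every calf was that of ENSBTAG00000011467. At birth its level was 0 to 0.31 CPM in the 14 calves (median 0.199), on 0 to 8 counts per sample, and at 168 h it was 2.13 to 15.7 CPM (median 5.35). Every calf was higher at 168 h and the ages did not overlap. The log2 fold change was 4.66 (standard error 0.236, edgeR adjusted p = 1.42e-09), or 25.3-fold. At the ages between, the median stood above its 168 h value, at 13.1 CPM at 48 h (1.57 to 132) and 21.4 CPM at 72 h (2.45 to 70.6). By the medians, the rise left at 1 week was the remainder of a larger one, but calves differed in this course. At 48 h CL calves were at 1.57 to 14 CPM and LF calves at 2.45 to 132 CPM, a difference not tested here. CL calves 1, 2, 3 and 4 and LF calf 5 were then below their own 168 h level. At 72 h CL calf 3 (4.67 CPM) and LF calf 3 (14.9 CPM) were below their own 168 h level (5.42 and 15.7 CPM).

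ENSBTAG00000019278 had the smallest p-value of the upregulated genes. It went from 1.02 to 3.6 CPM at birth (median 1.85, n = 14) to 8.7 to 21.7 CPM at 168 h (median 12.2, n = 14), a log2 fold change of 2.79 (standard error 0.141, edgeR adjusted p = 1.42e-09). All 14 calves rose and no 168 h sample was as low as any 0 h sample. By the medians its course was stepwise, with 7.36 CPM at 48 h and 13.1 CPM at 72 h, and the 168 h median was close to that at 72 h. Single calves differed. Between 72 h and 168 h LF calf 4 rose from 5.6 to 21.7 CPM and LF calf 5 fell from 19.5 to 11.4 CPM. LF calf 1 was at 2.07 CPM at birth and 2.05 CPM at 48 h.

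The largest fall was that of ENSBTAG00000021161, from 1.25 to 10.7 CPM at birth (median 3.69) to 0 to 0.337 CPM at 168 h (median 0). At 168 h it had 2 counts in CL calf 7, 8 counts in LF calf 3 and 0 in the other 12 calves, against 26 to 269 counts per calf at birth. The log2 fold change of -7.32 (standard error 0.396, edgeR adjusted p = 1.65e-09) rests on those few counts, and its size is therefore less well set than its direction. Low levels were already present at 48 h, when the highest sample was at 0.382 CPM and the median was 0.0405 CPM. At 72 h the highest sample was at 0.0759 CPM. A transcript of modest level at birth, it had at most 8 counts in any calf at the later ages.

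ENSBTAG00000001060, the downregulated gene with the smallest p-value, was abundant at birth. Its level was 492 to 895 CPM at 0 h (median 718) and 58.3 to 191 CPM at 168 h (median 76.9), a log2 fold change of -2.93 (standard error 0.131, edgeR adjusted p = 1e-09), or 7.6-fold. It fell in all 14 calves without overlap of the ages. Most of that fall was present at 48 h (median 120 CPM, 62.1 to 258), and the medians at 72 h (80.6 CPM) and 168 h differed by less than the spread among calves.

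**Figure D2:**
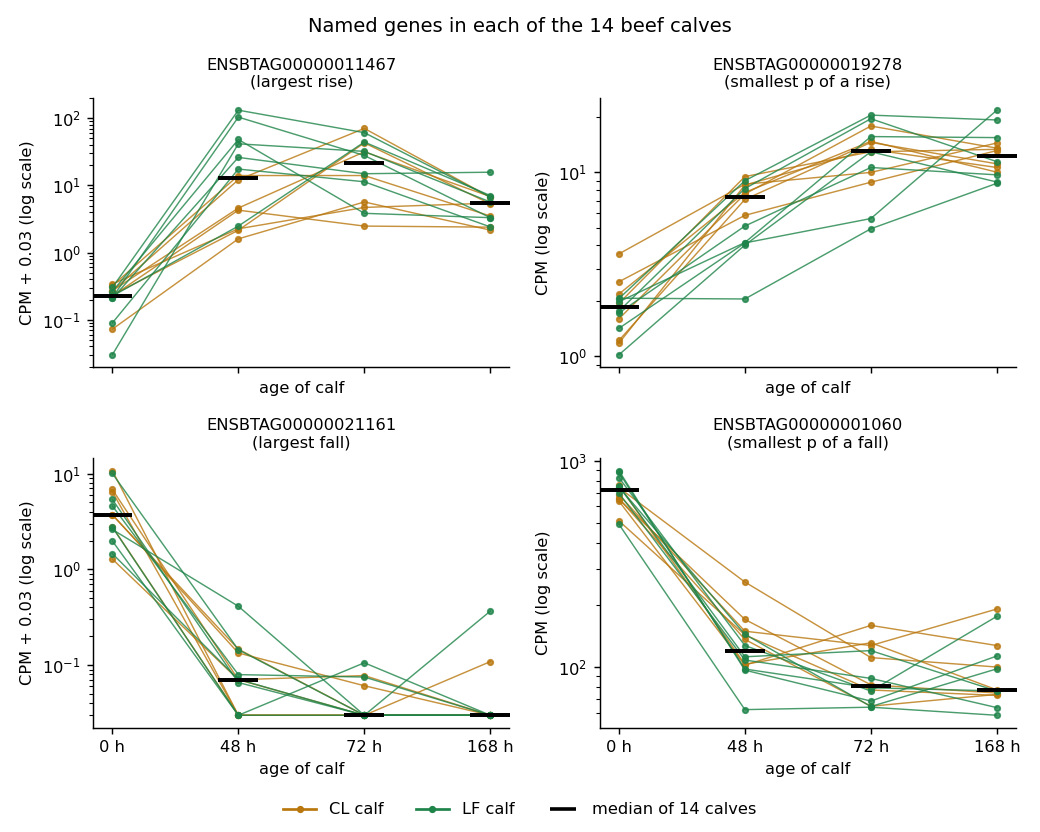
Level of the 4 genes described by identifier in each of the 14 beef calves at 0, 48, 72 and 168 h, in CPM on a log scale with the ages spaced evenly; in the panels of ENSBTAG00000011467 and ENSBTAG00000021161 0.03 CPM was added so that samples at 0 could be drawn. Lines join the samples of 1 calf (CL calves in orange, LF calves in green) and black bars are medians; for each gene all 0 h points lie on one side of all 168 h points.

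Agreement among the calves was then counted. Of the 1016 upregulated genes, 575 (56.6%) were higher in all 14 calves, and of the 1255 downregulated genes 424 (33.8%) were lower in all 14. Among all genes tested, 12% moved the same way in every calf. The 168 h and 0 h samples did not overlap at all for 277 upregulated genes (27.3%) and 116 downregulated genes (9.24%), while 3.45% of all genes tested showed no overlap. These shares describe the DEG on the samples that chose them.

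The DEG were also divided by mean level over the 28 samples. Of the 2058 genes averaging 100 CPM or more, 77 (3.74%) were upregulated and 218 (10.6%) were downregulated. Between 1 and 10 CPM, 465 genes (13.8%) were upregulated and 444 (13.1%) downregulated, of 3379. The median mean level was 7.88 CPM for upregulated genes, 12.1 CPM for downregulated genes and 22.9 CPM for all genes tested. Precision also depended on level, as the median standard error of the log2 fold change was 0.241 under 1 CPM and 0.0744 at 100 CPM or more.

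In terms of the blood RNA pool, the downregulated genes took 9.24 to 18.9% of the reads on genes at birth (median 13.1%, n = 14) and 4.95 to 8.66% at 168 h (median 6.02%). The upregulated genes took 1.55 to 2.32% at birth (median 2.01%) and 3.63 to 6.63% at 168 h (median 4.59%). The former share was lower and the latter higher at 168 h in 14 of 14 calves. The genes were chosen on these same samples, so this count describes the choice and is no separate evidence. At 48 h and 72 h, whose samples played no part in choosing these genes, the downregulated genes stood at medians of 8.58% and 8.48%, and the upregulated genes at 3.6% and 4.25%. The medians at these ages lay between those at birth and at 168 h, which come from the samples that chose the genes. Single calves did not all do so. At 48 h the upregulated genes took 3.14 to 3.88% in CL calves and 3.51 to 8.34% in LF calves. LF calf 1 (8.34%) and LF calf 2 (6.88%) were then above the highest 168 h sample (6.63%).

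For most genes the data placed the 168 h level near the birth level. The whole 95% interval of the fold change lay within 1.5-fold in either direction for 8097 of 12851 genes (63%). Of these, 5252 had an adjusted p-value of 0.05 or more in the edgeR test, and the remainder differed from birth by a small amount. Another 2483 genes (19.3%) were neither DEG nor held within 1.5-fold. Of these, 1189 differed from birth at an adjusted p-value under 0.05 with a fold change under 1.5, and for the other 1294 (10.1% of genes tested) neither a difference nor a return to the birth level was shown at this depth and number of calves. At 100 CPM or more, 73.8% of genes were held within 1.5-fold, compared with 15.5% under 1 CPM. Few of the 8097 genes had been far from birth in between. The mean 48 h level was at least 2-fold above birth for 10 of them and at least 2-fold below for 4, and at 72 h these numbers were 56 and 9. These counts cover only genes with a narrow interval at 168 h, and were not made for the 2483 genes outside both classes. Among all genes tested, 502 had a mean 48 h level at least 2-fold above birth and 334 at least 2-fold below.

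The ages between were then used to describe when the difference at 168 h was reached. The 48, 72 and 168 h differences share the 0 h samples, so they are given side by side without a test. For the upregulated genes, the median log2 difference from birth was 0.83 at 48 h, 0.98 at 72 h and 0.99 at 168 h in a fit of all 56 beef samples. For the downregulated genes it was -0.59, -0.66 and -0.94. Over all genes tested the median lay within 0.02 of 0 at 48 h and 72 h and was 0.02 at 168 h. Taken gene by gene, the median share of the 168 h change that was present was 70.2% at 48 h and 81.1% at 72 h for upregulated genes, and 61.2% and 61.4% for downregulated genes. The set medians cover genes that had passed their 168 h level and genes that had not reached it.

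**Figure D3:**
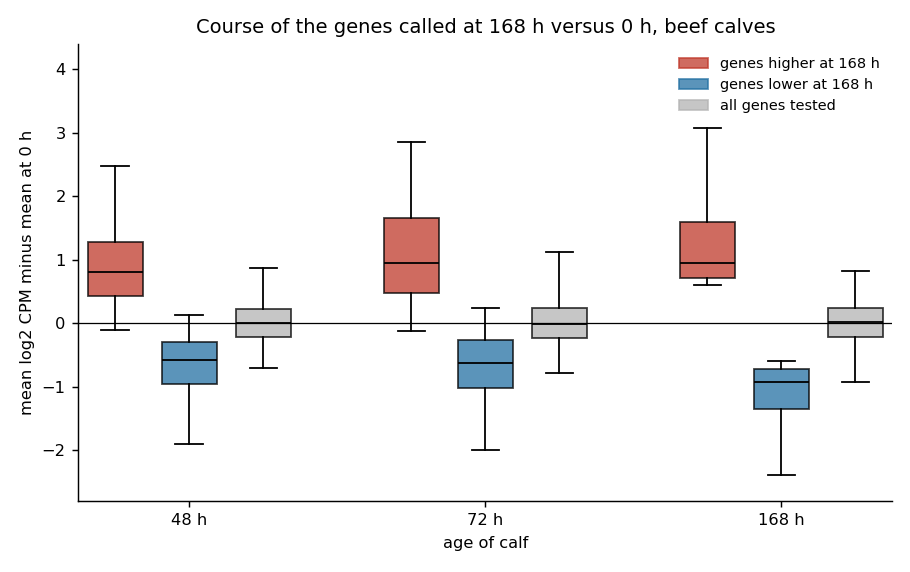
Mean log2 CPM of the 14 beef calves at 48, 72 and 168 h minus the mean at 0 h, for the 1016 upregulated DEG (red), the 1255 downregulated DEG (blue) and all genes tested (grey); boxes span the quartiles, lines in boxes are medians and whiskers reach the 5th and 95th percentiles of genes. The red medians are 0.83, 0.98 and 0.99 and the blue medians -0.59, -0.66 and -0.94 in the fit of the 56 samples; the 168 h boxes of DEG are bounded away from 0 by their choice.

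Single genes followed several courses. Of the upregulated genes, 670 (65.9%) had passed the midpoint between their birth and 168 h levels by 48 h, and 787 (77.5%) by 72 h. Both the 48 h and 72 h means of 265 upregulated genes (26.1%) were above the 168 h mean, the course seen for ENSBTAG00000011467, by the order of the means alone. Among the downregulated genes, 9.08% had 48 h and 72 h means that were both below the 168 h mean. Other genes took a late course. Neither the 48 h nor the 72 h mean had reached the midpoint for 335 downregulated genes (26.7%) and 167 upregulated genes (16.4%). At 48 h, 6.99% of the upregulated genes stood below and 8.05% of the downregulated genes above their birth level. The means followed a steady order from birth through 48 h and 72 h to 168 h in 355 upregulated (34.9%) and 396 downregulated genes (31.6%). This order says nothing of the size of the steps, and it overlaps with the midpoint classes above. The differences between these shares were not tested.

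The change from 48 h to 72 h uses none of the samples that chose the DEG, and it was tested in the same 14 calves by the same edgeR fit. Of 1000 upregulated genes tested there, 176 (17.6%) rose between 48 h and 72 h and 7 (0.7%) fell, while 3.3% of all genes tested rose and 0.57% fell (3.87% in either direction). Their median log2 fold change was 0.16. Of 1185 downregulated genes tested there, 22 (1.86%) rose and 21 (1.77%) fell, and their median was 0.01. Between 48 h and 72 h, therefore, the genes raised at 1 week were still rising in part, and the median of the genes lowered at 1 week was near 0.

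The calves were then examined one by one. Each calf was left out in turn, DEG were computed from the other 13, and the direction of those genes was read in the calf left out. Between 2130 and 2446 genes were DEG in these 14 fits. The genes upregulated in the other calves were higher at 168 h in 84.4 to 97.6% of cases in the calf left out (median 93.5%), and their median log2 change was 0.80 to 1.51. The genes downregulated in the other calves were lower in 80.1 to 98% of cases in 13 calves, with CL calf 1 as the exception at 54.5%. The median log2 change of these genes was -0.06 in CL calf 1, and the largest fall was -1.65 in LF calf 6.

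CL calf 1 therefore showed the rise but hardly the fall. In this calf, 84.4% of the upregulated genes were higher, with a median log2 change of 0.82. The 1255 downregulated genes took 9.24% of its gene counts at birth, the lowest value of the 14 calves, and 8.66% at 168 h, the highest. At 48 h and 72 h this share was 9.41% and 9.48% in CL calf 1. The 168 h sample of this calf is the one with the high multimapping share given above, and the part of that share in the result was not tested. Without CL calf 1 there were 988 upregulated and 1458 downregulated genes. The opposite extreme was LF calf 6, in which the downregulated genes took 18.9% of gene counts at birth and 5.71% at 168 h. In LF calf 1, whose 0 h library was poor, 91.6% and 96.4% of genes moved with the other calves, and the median rise of 0.80 was the lowest of the 14 calves. Without it 2259 genes were DEG.

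**Figure D4:**
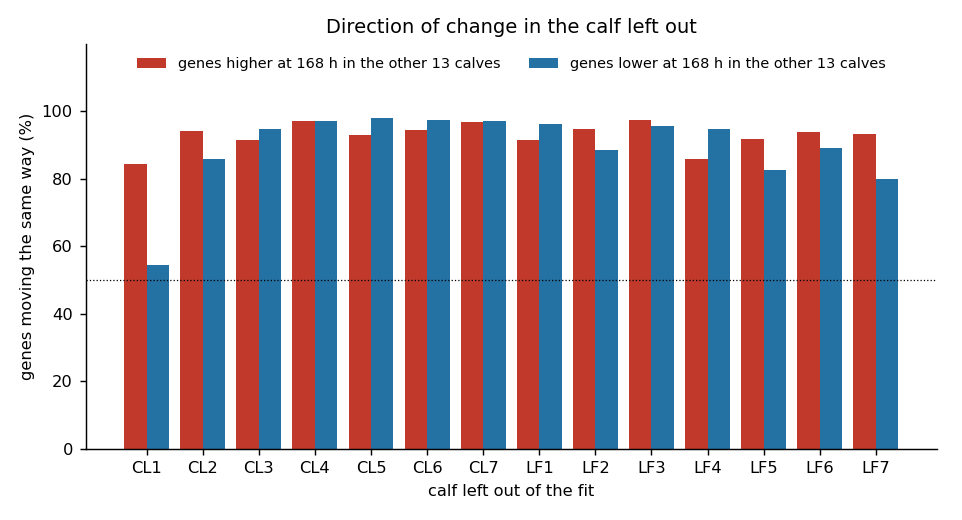
For each of the 14 beef calves, the percentage of genes that moved the same way in that calf as in the other 13, where the DEG had been computed without it; red bars are genes upregulated and blue bars genes downregulated in the other 13 calves, and the dotted line marks 50%. CL calf 1 stands out with 54.5% of the downregulated genes lower at 168 h, while its red bar is at 84.4%.

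The beef groups were next compared, as they share no sample. In CL calves 2010 of 12876 genes (15.6%) were DEG (917 upregulated, 7.12%, and 1093 downregulated, 8.49%), and in LF calves 1856 of 12773 (14.5%; 851 upregulated, 6.66%, and 1005 downregulated, 7.87%). The groups had 1354 DEG in common in the same direction, which is 67.4% of the CL and 73% of the LF genes, and 0 in opposite directions. Of the 907 genes upregulated in CL calves and tested in LF calves, 899 (99.1%) were higher at 168 h in LF calves and 650 were DEG there. Of 1072 downregulated genes, 1067 (99.5%) were lower in LF calves and 704 were DEG. All genes tested in LF calves were divided into 52.1% higher and 47.9% lower at 168 h. Over the 12675 genes tested in both groups, the log2 fold changes had a Pearson's r of 0.912 and a Spearman's rho of 0.831, across genes that share the same libraries. Without CL calf 1 there were 2421 DEG in CL calves (952 upregulated and 1469 downregulated), and without LF calf 1 there were 1714 in LF calves. These had 1362 genes in common in the same direction, or 56.3% of the CL and 79.5% of the LF genes, and 0 in opposite directions.

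The difference between the changes of CL and LF calves was tested as an interaction of breed and age, with the calf as a block. No gene passed, with 0 DEG (0%) among 13277 genes in edgeR and 0 in DESeq2, and also 0 in edgeR without CL calf 1 and LF calf 1. Before adjustment, 358 genes (2.7%) were under 0.05. The 95% interval of the difference lay within 1.5-fold for 6775 genes (51%), and for the other genes the interval reached beyond that size. The widest gap among the named genes was that of ENSBTAG00000021161, at -8.36 in CL and -6.60 in LF calves, with an interaction of -1.71 (95% interval -4.0 to 0.57) that rests on the few counts left at 168 h. ENSBTAG00000019278 changed by 2.65 in CL and 2.92 in LF calves. ENSBTAG00000011467 changed by 4.35 in CL and 5.00 in LF calves on the log2 scale (standard errors 0.251 and 0.375), and ENSBTAG00000001060 by -2.78 and -3.08 (standard errors 0.18 and 0.158).

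Holstein dairy calves (H, 8 calves) were sampled at the same ages on another farm. They were separated from the dam, and their first feed was colostrum given artificially at 5% of body weight. More colostrum from the dam followed, and before 168 h they were moved to a group pen with milk replacer and concentrate. Breed, farm and management therefore cannot be told apart. In H calves the comparison of the same ages gave 2818 DEG of 12647 genes (22.3%), with 1099 that rose (8.69%) and 1719 that fell (13.6%). The 0 h library of H calf 6 stood apart, with 40.96% of reads mapped to several places and 42.69% of gene counts in its 20 most abundant genes, against 12.7% and 14.02% at 168 h in the same calf. Without this calf there were 2769 DEG of 12668 genes (21.9%), 1206 upregulated and 1563 downregulated. Most genes that changed in beef calves moved the same way in H calves. Over all genes tested in H calves, 49.7% were higher and 50.3% lower at 168 h. Of 972 genes upregulated in beef calves and tested in H calves, 934 (96.1%) were higher and 703 (72.3%) were upregulated DEG, with a median log2 fold change of 0.96. Of 1204 downregulated genes, 1198 (99.5%) were lower and 977 (81.1%) were downregulated DEG, with a median of -0.99. Without H calf 6 these shares were 97% higher and 75.4% DEG among the upregulated genes, and 99.1% lower and 78.4% DEG among the downregulated genes. With all 8 calves, the reverse direction reached the threshold for 3 upregulated and 0 downregulated genes. Over the 12544 genes tested in both, the log2 fold changes had a Pearson's r of 0.871 and a Spearman's rho of 0.791, across genes.

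**Figure D5:**
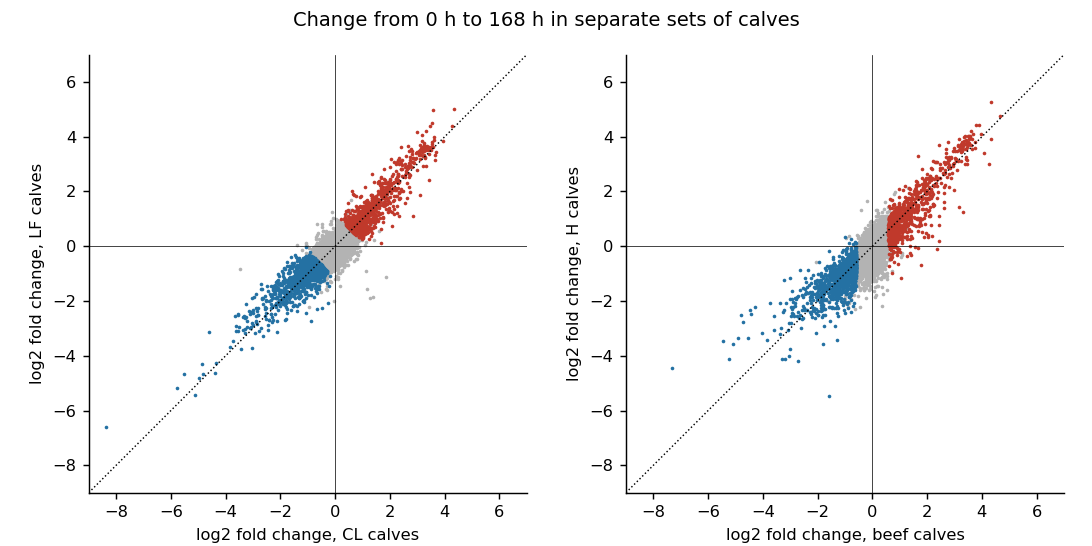
Log2 fold change at 168 h versus 0 h of each gene in LF against CL calves (left) and in H against beef calves (right), with the dotted line at equal change; red and blue mark the genes upregulated and downregulated in the pooled beef calves, which were chosen on the axes of the left plot and the x axis of the right plot. Points lie along the line in both plots, with r of 0.912 and 0.871, and the largest beef fall, at -7.32, lies above the line on the right at -4.43 in H calves.

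The difference in change between dairy and beef calves, tested as an interaction with the calf as a block, gave 0 DEG among 13402 genes in edgeR, with a smallest adjusted p-value of 0.0579. Unadjusted p-values under 0.05 were found for 2261 genes (16.9%), a share that was 2.7% in the interaction of CL and LF calves. The 95% interval of the difference lay within 1.5-fold for 7158 genes (53.4%). For the other genes it reached beyond that size, so 0 DEG does not show that the changes were equal. DESeq2 on the same samples called 1.14% of genes, 39 of them with a more positive and the rest with a more negative change in dairy calves, so the result depended on the tool. Without CL calf 1 and LF calf 1, edgeR called 0.03% of genes. Without H calf 6, it called 0 of 13466, with a smallest adjusted p-value of 0.0682 and 2040 genes (15.1%) under 0.05 before adjustment. Of the named genes that rose, ENSBTAG00000011467 differed between dairy and beef calves by 0.14 on the log2 scale (95% interval -1.39 to 1.67) and ENSBTAG00000019278 by 0.14 (-0.49 to 0.78). For ENSBTAG00000021161 the log2 fold change was -4.43 in H calves, a difference from beef calves of 2.80 (95% interval 0.98 to 4.63, edgeR adjusted p = 0.139), or 2.16 without H calf 6 (0.57 to 3.76, edgeR adjusted p = 0.205). In H calves it went from 2.86 to 13.1 CPM at birth (median 6.15) to 0 to 4.18 CPM at 168 h (median 0.237). The H median at 168 h lay close to the level of 3 counts, while the highest H sample still held the transcript. ENSBTAG00000001060 changed by -1.94 in H calves, a difference of 1.01 (95% interval 0.47 to 1.55, edgeR adjusted p = 0.0979), or 0.81 without H calf 6 (0.34 to 1.28, edgeR adjusted p = 0.147). Its level in H calves was 282 to 489 CPM at birth (median 339, n = 8) and 56.6 to 211 CPM at 168 h (median 86.5), on a scale normalised within H samples and so not compared with the beef levels. Neither difference passed the adjusted threshold.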

How the data were processed

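Per the labels and the study's methods, reads from whole blood were trimmed with cutadapt, checked with FastQC, mapped by STAR (genome build UMD3.1) and counted per gene; versions are not given in the sources used here. The authors deposited raw, unstranded counts for 24616 genes; the 2 strand-specific columns, counted separately, came to 50.6% and 49.75% of the unstranded total. Reads mapped to several places are not counted on genes, so near-identical genes can be undercounted.

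Counts were tested with edgeR 4.0.16 in R 4.3.3 (TMM, default filter on low counts, quasi-likelihood test with robust dispersion, calf as a block). DESeq2 1.42.0 was an alternative. Standard errors are the size of the fitted log2 change over the root of its F value, and intervals are 95%. CPM of beef calves were normalised over the 56 beef samples and those of H calves within the H samples, and changes within a calf used log2 CPM with a prior count of 2. Floors of 3 counts cover counting error only. The fits were tested on simulated data.

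Calves were paired by the tag number of the labels, since replicate numbers differ between ages for LF calves. Deviations from group means correlated with a mean r of 0.272 between samples of the same calf (lowest -0.182) and -0.0455 between different calves. Among 84 pairs of samples within groups, chi-square over its degrees of freedom was at least 33.95, and none was counted as a repeat. Members, gene lists and tests were chosen with earlier results of these data known. The lists of marker and pathway genes could not be applied, because symbols were matched to 0 identifiers. Named genes were therefore limited to 2 per direction, the largest change (mean of at least 1 CPM, same direction in 14 calves) and the smallest p. The fit with hemoglobin genes left out was not run for the same reason, and sequences are not given. The number after the letter L in sample names, and the letter R (3 of the 28 samples, all at 168 h), are unexplained.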

Additional observations from a re-analysis of the deposited data

Results flagged for a closer look

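In groups of 7 samples, 52 sets of values were checked for a sample whose distance to its nearest neighbour exceeded 0.568 of the group's range, and 13 were found. Chance gives about 1 in 20 only for independent sets of normally distributed values. Some of these sets share a library or hold 0 counts in all calves but 1, so the 13 cannot be set against that rate. The 0 h library of LF calf 1 was found by its high unmapped (27.66%) and multimapping (32.79%) shares. It was also found by its low share of reads outside genes (13.37%). CL calf 5 at 0 h had high multimapping (15.58%) and a high share of counts in the 20 most abundant genes (12.84%), and LF calf 2 had the highest such share among LF calves at 168 h (10.54%).

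Among the named genes, ENSBTAG00000011467 was lowest in CL calf 4 at 0 h (0.0423 CPM, 1 count) and highest in LF calf 3 at 168 h (15.7 CPM). ENSBTAG00000021161 was highest at 168 h in CL calf 7 (0.079 CPM) and LF calf 3 (0.337 CPM), where the other calves of each group had 0 counts.

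In the calf left out of the fit, CL calf 1 had the lowest share of downregulated genes that were lower at 168 h (54.5%), and LF calf 6 had the largest median rise of the upregulated genes (1.51 on the log2 scale). LF calf 6 also had the highest share of gene counts in downregulated genes at birth (18.9%).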

How the results depend on the processing

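The number of DEG was within 1.5 times 2271 under 25 of 27 alternatives, from 1708 with at least 10 counts in every sample to 2760 without a filter on low counts. The exceptions changed the threshold itself, with 6305 genes without a fold change threshold (3353 upregulated and 2952 downregulated, so that rises outnumbered falls) and 1110 when the edgeR test itself took 1.5-fold as its null. In the fit without the replicate block 2245 genes were DEG, and the block changed no other call by over 1.5 times. Leaving out each calf in turn gave 2130 to 2446. With the L number of the sample names as a covariate and no replicate block, 1739 genes were DEG. Of these, 910 were upregulated and 829 downregulated, where falls again did not outnumber rises. Leaving out the 20 most abundant genes (2273) or CL calf 1 and LF calf 1 together (2463) were chosen after seeing the data. The 4 named genes kept their direction and call under all alternatives in which they were tested. The dairy and beef interaction moved from 0 to 1.14% of genes with DESeq2 and to 0.03% (2 genes in each direction) without CL calf 1 and LF calf 1, a fit also chosen after seeing the data, and the cause was not tested. It stayed at 0 without H calf 6, likewise chosen after seeing the data. Without CL calf 1 and LF calf 1, 7661 genes were held within 1.5-fold, and the separate CL and LF counts stayed within 1.5 times theirs. Depth limits genes under 1 CPM, where 15.5% were held within 1.5-fold of birth.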
